A study of Mus musculus with 2 samples.

Results

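The genes described are 8 that mark the naive and memory states of lymphocytes: Tcf7, Lef1, Klf2, Il7r, Ccr7, S1pr1, Satb1 and Id2. They were chosen by name, all 8 were among the 31253 genes counted, and none was used to group the cells. CD45+ leukocytes came from intrahepatic cholangiocarcinoma (iCCA) of the mouse, a bile duct cancer that grows in the liver, and were read by single-cell RNA sequencing on BD Rhapsody, a platform that captures cells in microwells with barcoded beads. The NAV library came from mice given NAV2729, an inhibitor of ARF GTPase activation, at 30 mg per kg every other day for 7 days, and the MOCK library from mice given the mock treatment. Both groups were C57BL/6 mice whose tumours followed hydrodynamic co-injection of transposon vectors for Myr-AKT and YAPS127A, 7 days before treatment began. Hydrodynamic injection brings plasmids mainly into hepatocytes. Each group is 1 pooled library, and the labels give the pool as 6 tumours in the design text and as 3 paired tumours in the protocol, so its size is uncertain.

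Naive and central memory lymphocytes circulate between blood and lymph nodes and stay quiescent until they meet antigen. TCF1, the product of Tcf7, and its relative LEF1 hold the naive and stem-like programmes, KLF2 keeps cells quiescent and promotes transcription of the egress receptor S1PR1, CCR7 guides cells into lymph nodes, and the IL-7 receptor carries a survival signal. SATB1 organises chromatin in lymphocytes. ID2 blocks E proteins and marks effector T cells, natural killer (NK) cells, innate lymphoid cells and dendritic cells.

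All members are protein-coding genes, placed here on GRCm38, the build also called mm10. Tcf7 spans bases 52252371 to 52283014 of chromosome 11 and Ccr7 bases 99144196 to 99155077 of the same chromosome. Lef1 spans bases 131110471 to 131224356 of chromosome 3, and S1pr1 bases 115710433 to 115715072 of that chromosome. Klf2 lies on chromosome 8 from 72319033 to 72321656, Il7r on chromosome 15 from 9505788 to 9530176, Satb1 on chromosome 17 from 51736187 to 51833290 and Id2 on chromosome 12 from 25093799 to 25097140. Lef1 and Klf2 are on the plus strand and the other members on the minus strand.

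RefSeq promoter windows of 300 bases, 250 before and 50 after a start site, were matched by symbol for 6 members. Ccr7 and S1pr1 had no entry. Windows are shown for Tcf7 and Lef1, the pair with the most similar pattern over cell classes, and for Il7r, which differed between the libraries in several T cell clusters. Where a gene had several windows, the one with the most motif matches was taken. Capitals mark motif matches on either strand, and the letters run 5′ to 3′ on the gene's strand in the GRCm38.p6 sequence.
Tcf7, chr11:52282546-52282845, minus strand: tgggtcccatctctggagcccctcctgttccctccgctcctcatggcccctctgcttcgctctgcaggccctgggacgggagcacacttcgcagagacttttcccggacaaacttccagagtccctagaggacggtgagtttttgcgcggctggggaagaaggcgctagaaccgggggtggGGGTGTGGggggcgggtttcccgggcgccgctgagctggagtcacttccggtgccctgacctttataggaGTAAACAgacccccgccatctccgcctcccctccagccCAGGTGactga
Lef1, chr3:131156044-131156343, plus strand: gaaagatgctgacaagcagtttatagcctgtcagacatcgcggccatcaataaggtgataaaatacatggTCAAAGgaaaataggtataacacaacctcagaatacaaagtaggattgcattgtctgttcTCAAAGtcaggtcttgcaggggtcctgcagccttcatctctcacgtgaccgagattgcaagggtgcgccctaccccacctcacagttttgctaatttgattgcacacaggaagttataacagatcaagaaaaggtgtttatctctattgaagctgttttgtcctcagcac
Il7r, chr15:9529827-9530126, minus strand: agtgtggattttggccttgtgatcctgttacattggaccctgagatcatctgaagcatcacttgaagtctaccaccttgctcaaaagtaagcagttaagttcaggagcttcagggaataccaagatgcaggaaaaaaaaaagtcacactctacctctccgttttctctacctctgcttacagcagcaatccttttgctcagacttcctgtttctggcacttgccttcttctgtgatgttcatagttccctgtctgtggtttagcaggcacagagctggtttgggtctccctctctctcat

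The Tcf7 window held the KLF motif CCACACCC on its minus strand, the FOXO motif GTAAACA and the E-box CACCTG on its minus strand. Of the 32851 windows searched, 3.56%, 3.65% and 20.2% held these motifs in that order. The Lef1 window held 2 matches to the TCF/LEF motif CTTTGA, both on the minus strand, and 16% of all windows held at least 1. It starts at base 131156044, inside the gene, which starts at base 131110471. The other Lef1 windows held no TCF/LEF match, and the other Tcf7 window held none of the 4 motifs. The windows of Tcf7 and Lef1 were picked for their matches and the windows behind the shares were not, so the 2 are not alike. The Il7r window held none of the 4. The motifs do not overlap one another, and a match is a description of the letters in the window.

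The libraries held 31454031 UMIs (unique molecular identifiers, each counting 1 captured transcript) in 10465 NAV barcodes and 45976676 UMIs in 10863 MOCK barcodes, and 5 barcodes were in both. After filters and removal of likely doublets 9882 NAV and 10228 MOCK cells remained, with medians of 2005.5 and 3735 UMIs. The CD45 transcript Ptprc was seen in 79.6% of NAV and 83.5% of MOCK cells. Lymphocyte depth was closer: CD8 T-like cells had medians of 2130 UMIs in NAV and 2127 in MOCK, and NK-like cells 2200.0 and 2213. Levels are given in CPM, the UMIs of a gene per 1000000 UMIs of its class, with an exact Poisson 95% interval. With 1 library per group there was no test between groups, and every interval covers counting error only.

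Tcf7 was a T cell and NK cell gene here, with a further level in mature dendritic cells. Its highest level was in CD4 T-like cells, with 613 CPM (515 to 724) in 110 NAV cells, against 640.0 CPM (487 to 826) in 51 MOCK cells. CD8 T-like cells had 367 CPM in 169 NAV cells and 388 CPM in 97 MOCK cells. The libraries differed by less than the counting intervals in both classes. Gamma-delta T and T17-like cells, here called gd T/T17-like and led by Il17a, had 214 CPM in NAV and 251 CPM in MOCK, and NK-like cells had 263 and 174 CPM. In mature DC-like cells, the Ccr7-high migratory dendritic cells, Tcf7 stood at 159.7 CPM in NAV and 99.1 CPM in MOCK. The order put the CD4 class first, but its values overlapped those of the T cells left out of the CD8 and CD4 classes. Those T cells had 372 CPM in NAV and 679 CPM in MOCK, and were a different mix in each library. T cluster 8, with Lef1 and Tcf7 among its leading genes, gave 7 of their 58 NAV and 16 of their 55 MOCK cells. It had Tcf7 at 693 CPM in NAV and 829 CPM in MOCK. B-like cells had 1 Tcf7 UMI in 1177 NAV cells and 3 in 1023 MOCK cells.

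Lef1 was narrower. CD4 T-like cells had 507 CPM in NAV and 716 CPM in MOCK, and CD8 T-like cells had 300.3 and 230.3 CPM. The T cells left out of both classes had 219.6 CPM in NAV and 253.6 CPM in MOCK, an unnamed cluster led by Xcl1 and Klra7 had 127 and 87.3 CPM, and NK-like cells 88.4 and 58.1 CPM. Lef1 differed from Tcf7 in gd T/T17-like cells, where it was low in both libraries, at 30.2 and 52.6 CPM, and in mature DC-like cells, where no Lef1 UMI was counted in 90 NAV or 43 MOCK cells. B-like cells had a small level, 34.1 CPM in NAV and 15.2 CPM in MOCK.

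Satb1 was spread over B, T and NK cells. CD4 T-like cells had 1488 CPM in NAV and 1844 CPM in MOCK, B-like cells 1431 and 1428 CPM, and CD8 T-like cells 981 and 1002 CPM. NK-like cells had 980.3 CPM (886 to 1081) in NAV and 581 CPM (477 to 700.2) in MOCK, intervals that did not overlap. Monocyte-like and macrophage-like classes lay between 13.9 and 24.2 CPM in both libraries.

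Klf2 was not restricted to lymphocytes. B-like cells had 1409 CPM in NAV and 1446 CPM in MOCK, CD4 T-like cells 942 and 998 CPM, and CD8 T-like cells 773 and 559.9 CPM. Kupffer-like cells, macrophages that live in the liver sinusoids, had 885 CPM in NAV and 777 CPM in MOCK, and neutrophil-like cells 768 and 952 CPM. The lowest lymphoid class was gd T/T17-like, with 81.5 CPM in NAV and 35.1 CPM in MOCK.

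Among the receptors, Il7r was highest in gd T/T17-like cells, with 1330.4 CPM (1209 to 1461) in 111 NAV cells and 1497 CPM (1370.3 to 1633) in 132 MOCK cells. ILC2-like cells, the type 2 innate lymphoid cells, had 606 and 773 CPM, and the T cells left out of the CD8 and CD4 classes 473 and 842 CPM. CD4 T-like cells had 458 CPM in NAV and 336 CPM in MOCK, plasmacytoid (pDC-like) cells 404 and 366 CPM, and CD8 T-like cells 383 and 194 CPM. These last 3 classes overlapped in the order of levels. NK-like cells had 19.7 CPM in NAV and 26.4 CPM in MOCK, so Il7r separated them from the other innate lymphoid classes in both libraries. B-like cells had 15.1 and 17.3 CPM.

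Ccr7 was dominated by mature DC-like cells, with 4822 CPM (4601 to 5051) in NAV and 5212 CPM (4893 to 5545) in MOCK. B-like cells came next with 687 CPM in NAV and 777 CPM in MOCK. Conventional type 2 dendritic (cDC2-like) cells had 355 and 441 CPM, CD8 T-like cells 385 and 298 CPM, and CD4 T-like cells 298 and 390.5 CPM, a group whose ranges overlapped. S1pr1 was highest in CD4 T-like cells, with 969 CPM in NAV and 1193 CPM in MOCK, followed by the T cells left out of the CD8 and CD4 classes with 616 and 897 CPM, B-like cells with 423 and 574 CPM and CD8 T-like cells with 407 and 321 CPM. Dendritic classes had at most 7.19 CPM of S1pr1 in NAV and 27.6 CPM in MOCK, so the egress receptor did not accompany Ccr7 in mature DC-like cells.

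Id2 ran the other way among lymphocytes. It was highest in mature DC-like cells, with 2356 CPM in NAV and 2217 CPM in MOCK, and in ILC2-like cells, with 2156 and 2047 CPM, and within each library the counting intervals of these classes overlapped. Kupffer-like cells had 1535 and 1413 CPM, NK-like cells 1201 and 1051 CPM, and conventional type 1 dendritic (cDC1-like) cells 1089 and 1242 CPM. CD8 T-like cells had 388 CPM in NAV and 370.3 CPM in MOCK, B-like cells 110.0 and 93.2 CPM, and pDC-like cells 52.5 and 117 CPM. Among the named classes, the one with the highest level was the same in NAV and MOCK for all 8 members. With the T cells left out of the CD8 and CD4 classes set beside them, Tcf7 was highest in CD4 T-like cells in NAV and in those T cells in MOCK. With each library clustered on its own, the same named class was highest for 3 members. At that setting no class could be named CD4 T-like in MOCK, the class highest here for Tcf7, Lef1, S1pr1 and Satb1.

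**Figure D1:**
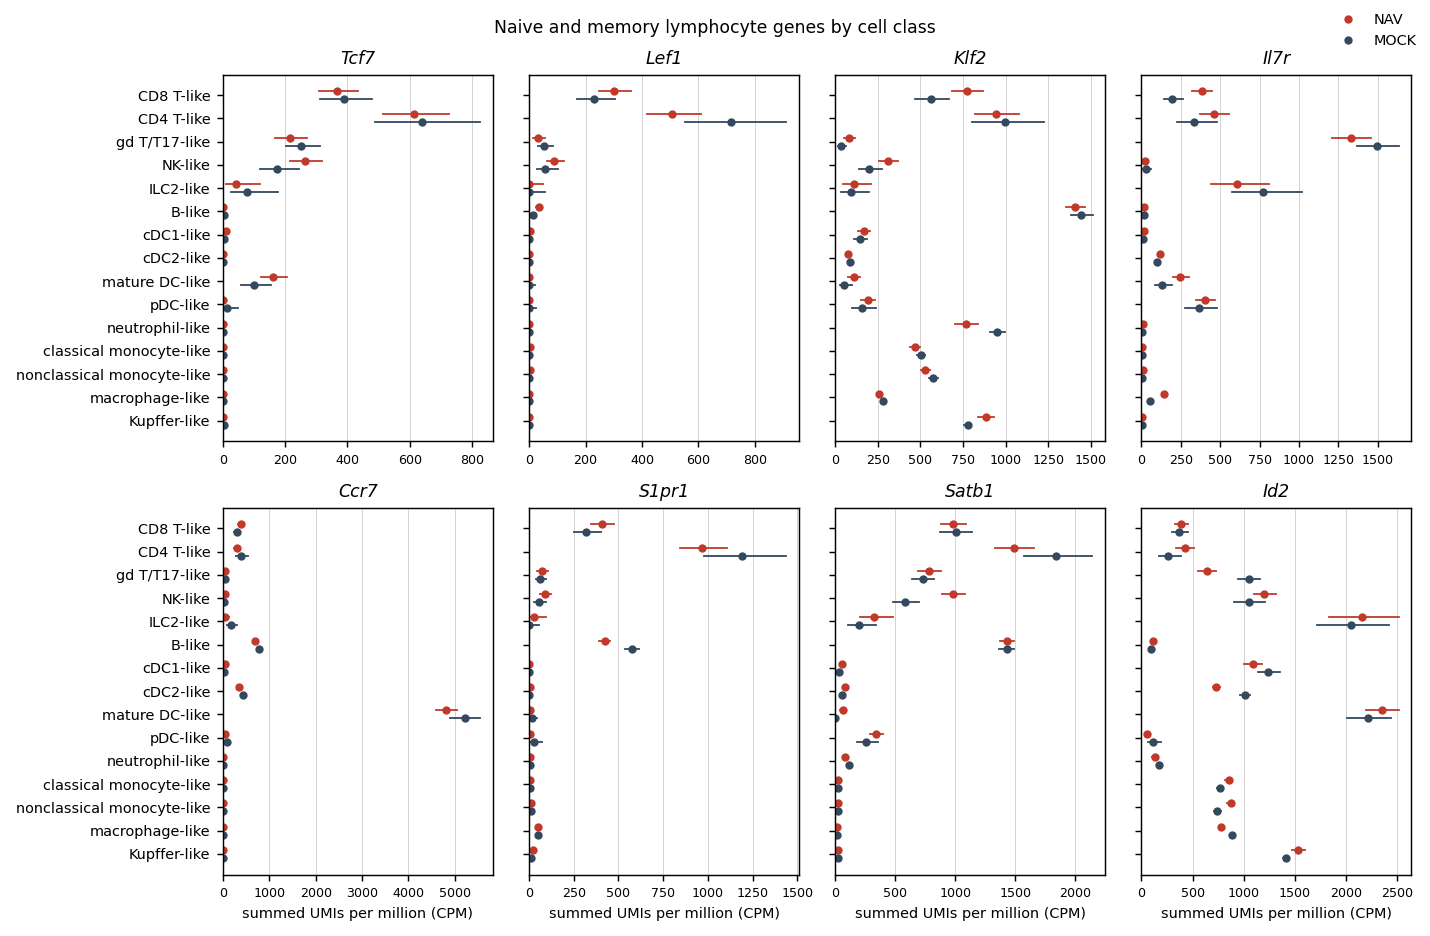
Summed UMIs per 1000000 (CPM, linear axis) of the 8 members in 15 cell classes, NAV above MOCK in each class, with points for the library and lines for exact Poisson 95% intervals. Tcf7 and Lef1 lie in T and NK classes, Il7r peaks in gd T/T17-like cells at 1330.4 CPM in NAV and 1497 CPM in MOCK, and Ccr7 in mature DC-like cells at 4822 and 5212 CPM.

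Within alpha-beta T cells the members separated clusters that had been drawn without them. Cluster 2, a CD4 cluster led by Trib2 (71 NAV and 38 MOCK cells), cluster 7, a CD8 cluster (31 and 13 cells), and cluster 4, a CD8 cluster led by Cd8b1 (47 and 27 cells), held the naive pattern. Cluster 1, a CD8 cluster with Pdcd1 among its leading genes (66 and 43 cells), and cluster 5, a CD4 cluster led by Cd4 and Pdcd1 (39 and 13 cells), held the opposite one. Pdcd1 encodes the inhibitory receptor PD-1. Lef1 and Tcf7 stood among the top genes of clusters 2, 4 and 7 although neither entered the clustering.

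In cluster 2 Tcf7 had 1015 CPM in NAV and 863 CPM in MOCK, and cluster 7 had 796 CPM in NAV and 802 CPM in MOCK. In cluster 1 it had 7.07 CPM in NAV, 1 UMI in 66 cells, and 44.9 CPM in MOCK, 4 UMIs in 43 cells. Cluster 5 had no Tcf7 UMI in either library, where 3 UMIs would be 33.7 CPM in NAV and 126 CPM in MOCK. Treg-like cells, the Foxp3-led regulatory T cells of cluster 6, had none in 28 NAV cells and 2 in 17 MOCK cells.

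S1pr1 and Satb1 followed the same division. In cluster 2 S1pr1 had 1603 CPM in NAV and 1609 CPM in MOCK, while in cluster 1 it had 35.4 and 11.2 CPM. Satb1 had 2456 and 2486 CPM in cluster 2, and 149 and 225 CPM in cluster 1. Id2 was reversed, with 88.2 CPM in NAV and 58.5 CPM in MOCK in cluster 2, against 693 and 831 CPM in cluster 1. Of the 7 clusters with at least 13 cells in each library, clusters 5 and 6 had the highest Id2, with 932 and 1582 CPM in NAV and 839.9 and 1157 CPM in MOCK.

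**Figure D2:**
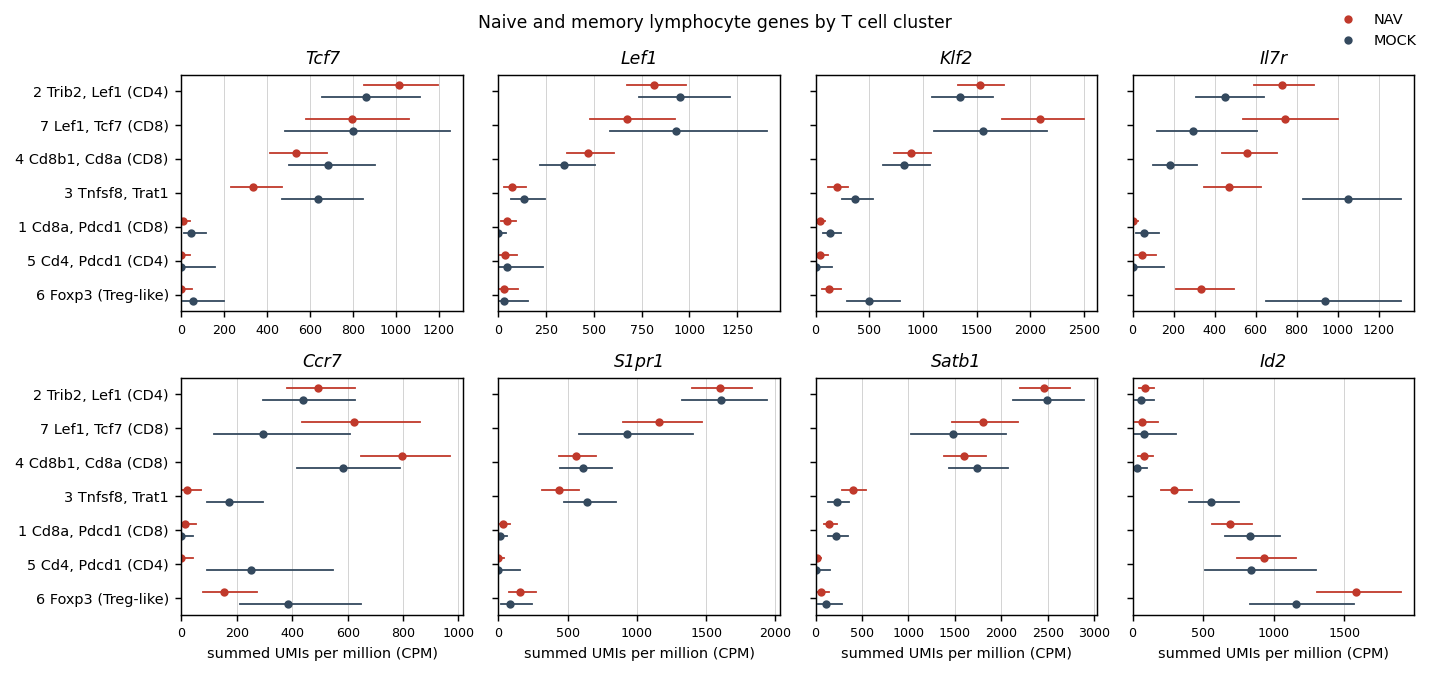
CPM (linear axis) of the 8 members in 7 clusters of alpha-beta T cells, named by leading genes, NAV above MOCK, with exact Poisson 95% intervals. Clusters 5, 6 and 7 hold 13, 17 and 13 MOCK cells, under the minimum of 20 set for classes. The upper 3 clusters are high in Tcf7, S1pr1 and Satb1 and low in Id2 in both libraries.

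The same division was seen cell by cell. Among CD8 T-like cells with a Pdcd1 UMI, Tcf7 was detected in 0 of 55 NAV cells, which allows a share of up to 5.45% (3 cells of 55), and in 4 of 33 MOCK cells, 12.1% (exact Clopper-Pearson interval 3.40 to 28.2%). Among those without a Pdcd1 UMI it was detected in 70 of 114 NAV cells, 61.4% (51.8 to 70.4%), and in 33 of 64 MOCK cells, 51.6% (38.7 to 64.2%). Median depth was 2296 and 2297 UMIs with Pdcd1, and 2073 and 2083.5 UMIs without. An unnamed cluster led by Klrh1 and Glp1r (44 NAV and 19 MOCK cells) was left out of these shares. It had Cd8a and Pdcd1 among its leading genes. Neutrophil-like cells, which should lack Tcf7, had it in 0 of 510 NAV cells and 1 of 1113 MOCK cells at medians of 1331 and 1384 UMIs. Cells with both transcripts have been described as stem-like exhausted CD8 T cells, and the MOCK interval of their share began below the limit that the count of 0 allows in NAV. CD4 T-like cells with a Pdcd1 UMI had Tcf7 in 0 of 34 NAV cells and 0 of 10 MOCK cells, which allows up to 8.82% and 30.0%.

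Id2 showed the reverse detection. It was found in 37 of 55 NAV and 19 of 33 MOCK CD8 T-like cells with a Pdcd1 UMI, 67.3% and 57.6%, against 32 of 114 and 11 of 64 cells without, 28.1% and 17.2%.

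**Figure D3:**
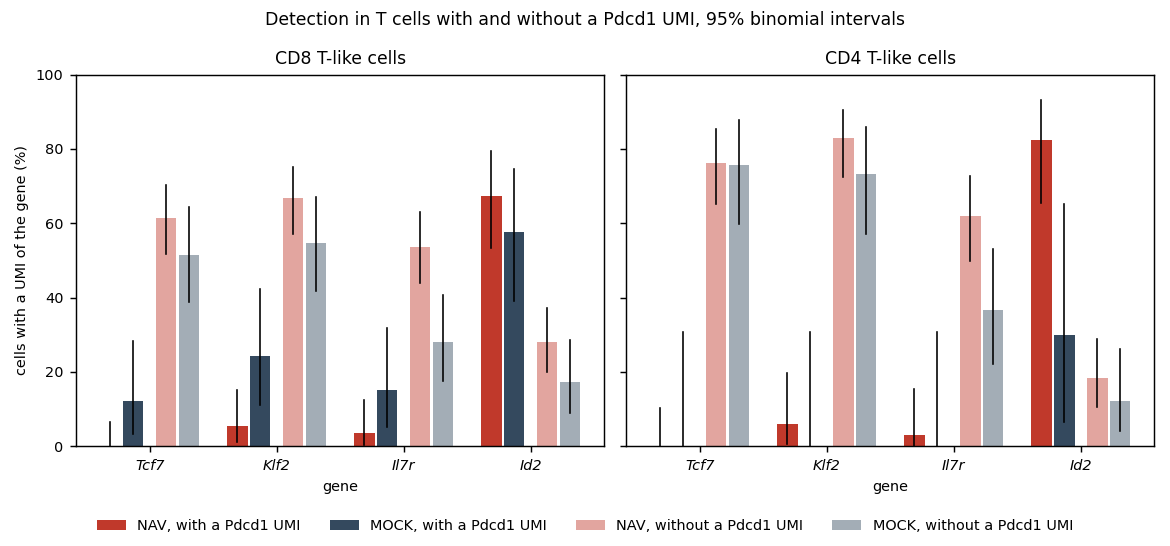
Percent of CD8 T-like (left) and CD4 T-like (right) cells with a UMI of Tcf7, Klf2, Il7r or Id2, for cells with a Pdcd1 UMI (dark bars) and without (pale bars), NAV left of MOCK, with exact Clopper-Pearson 95% intervals as lines. Tcf7 is at 0 of 55 NAV and 4 of 33 MOCK CD8 T-like cells with Pdcd1, and at 61.4% and 51.6% without.

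The comparison of the treatments starts with CD8 T-like cells, in which Il7r was the member that differed most. Il7r had 144 UMIs in NAV and 43 in MOCK, 383 and 194 CPM, a log2 NAV/MOCK ratio of 0.98 (exact interval 0.48 to 1.51). Klf2 had a ratio of 0.47 (0.16 to 0.78). The intervals of the other members held 0, with Tcf7 at -0.08, Satb1 at -0.03, Id2 at 0.07, S1pr1 at 0.34, Ccr7 at 0.37 and Lef1 at 0.38. None of the 8 passed a 2-fold difference, beside 3.81% of 4781 measured genes past it upward and 5.79% downward. The median over the members was 0.36, and over all measured genes -0.02. Summed macrophage markers were 104 CPM in NAV and 465 CPM in MOCK CD8 T-like cells, with 9 and 10 of 10 markers detected and the hepatocyte markers at 0 in both, and their part in these ratios was not tested. The class pools clusters, and cluster 1, low in Klf2, gave 66 of 169 NAV and 43 of 97 MOCK cells. Klf2 intervals held 0 within cluster 4 (0.11, -0.36 to 0.60), cluster 7 (0.42, -0.12 to 0.995) and cluster 9 (0.52, -0.31 to 1.43). Cluster 1 had 6 NAV and 12 MOCK Klf2 UMIs, under the minimum of 20. The part of the mix in the Klf2 ratio of the class was not tested.

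Il7r was higher in NAV in CD8 clusters 4 and 7, which held the naive pattern. In cluster 4 it had 558 CPM in NAV and 185 CPM in MOCK, a log2 ratio of 1.59 (0.73 to 2.57), where Tcf7 was at -0.35 and Satb1 at -0.11 with intervals that held 0. It was 1 of 7 measured members past 2-fold upward there, beside 5.82% of genes, and none was past it downward, beside 6.16%. Macrophage markers in cluster 4 summed to 151 CPM in NAV and 469 CPM in MOCK, with 7 and 6 of 10 detected, and their part was not tested. Cluster 7 had 744 CPM in 31 NAV cells and 295 CPM in 13 MOCK cells. Cluster 9, with 16 NAV and 7 MOCK cells, had Il7r at 665 CPM in NAV and 635 CPM in MOCK, a ratio of 0.07 (-1.19 to 1.47). That interval held both 0 and the cluster 7 ratio of 1.33, so cluster 9 is too small to tell whether it shared the difference. In cluster 1 no Il7r UMI was counted in 66 NAV cells, against 5 UMIs in 43 MOCK cells.

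The share of cells with an Il7r UMI also differed. In CD8 T-like cells without a Pdcd1 UMI, Il7r was found in 61 of 114 NAV cells, 53.5% (43.9 to 62.9%), and in 18 of 64 MOCK cells, 28.1% (17.6 to 40.8%), at medians of 2073 and 2083.5 UMIs. Neutrophil-like cells had Il7r in 0.98% of NAV and 0.809% of MOCK cells. With the likely doublets kept, the Il7r ratio in CD8 T-like cells was 0.20, and with the libraries clustered separately the Klf2 ratio was 1.72, S1pr1 1.49 and Lef1 1.10.

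In CD4 T-like cells Lef1 was lower in NAV, at 507 against 716 CPM (log2 ratio -0.50, interval -0.95 to -0.04), Satb1 was lower at -0.31 (-0.58 to -0.03), and Id2 was higher, at 422 against 260.3 CPM (0.70, 0.04 to 1.41). The class was a different mix in each library: cluster 2 gave 71 of 110 NAV cells and 38 of 51 MOCK cells, and cluster 5 gave 39 and 13. Within cluster 2 the Lef1 ratio was -0.22 (-0.67 to 0.24) and the Satb1 ratio -0.02 (-0.29 to 0.26). Cluster 5 held 83 of the 95 NAV and 20 of the 24 MOCK Id2 UMIs of the class. Within it the Id2 ratio was 0.15 (-0.57 to 0.93). Cluster 2 had 12 and 4 Id2 UMIs, under the minimum of 20. The part of the mix in the class ratios was not tested. Il7r in cluster 2 had 728 CPM in NAV and 453 CPM in MOCK, a ratio of 0.68 (0.09 to 1.31). None of the 8 members passed 2-fold in the class, beside 6.87% of 3086 genes upward and 5.51% downward, and under the stricter cell filter Lef1 stood at 0.11 and Id2 at -0.89. Macrophage markers summed to 120.0 CPM in NAV and 509.8 CPM in MOCK, with 5 and 8 of 10 detected, and their part was not tested.

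Cluster 3 (49 NAV and 36 MOCK cells) held T cells led by Tnfsf8 and Trat1, left out of the CD8 and CD4 classes. For Il7r it went the other way from cluster 4. Il7r had 473 CPM (349 to 627) in NAV and 1050.4 CPM (832 to 1309) in MOCK, a log2 ratio of -1.15 (-1.70 to -0.62). Tcf7 had 335 and 638 CPM, a ratio of -0.93 (-1.61 to -0.27), Klf2 a ratio of -0.92 (-1.82 to -0.04) and Id2 of -0.92 (-1.64 to -0.21). S1pr1 at -0.56 (-1.18 to 0.06) and Satb1 at 0.84 (-0.01 to 1.75) had intervals that held 0. Tcf7 was below 0 in cluster 4 too, at -0.35 (-0.91 to 0.21). Of the 6 measured members, Il7r alone passed 2-fold, downward, beside 5.82% of 1838 genes, and none passed upward, beside 4.52%. Macrophage markers in cluster 3 summed to 138 CPM in NAV and 319 CPM in MOCK, with 4 of 10 detected in both, and their part was not tested. Treg-like cells also had less Il7r in NAV, 333 CPM in 28 cells against 937 CPM in 17 MOCK cells, and less Klf2, 125 against 496 CPM. That class was under 20 cells in MOCK and is described only.

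In gd T/T17-like cells, the class with the highest Il7r, that gene had a log2 ratio of -0.17 (-0.36 to 0.02). Id2 was lower, with 639.6 CPM in NAV and 1049.8 CPM in MOCK, a ratio of -0.71 (-0.97 to -0.47), and at Leiden resolution 2.0 of -1.43. Klf2 was past 2-fold higher on few UMIs, 27 in NAV and 12 in MOCK (1.21, 0.19 to 2.33). This was 1 of 8 members upward, beside 3.57% of 4872 genes, and none passed downward, beside 5.23%. Macrophage markers summed to 112 CPM in NAV and 152 CPM in MOCK, with 7 and 6 of 10 detected, and neutrophil markers to 217 and 87.7 CPM, with 8 and 9 of 9 detected, and their part was not tested.

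NK-like cells (167 NAV and 75 MOCK) had higher values in NAV for all 7 measured members. Satb1 had a log2 ratio of 0.75 (0.45 to 1.07), Klf2, at 309.6 against 200.7 CPM, of 0.63 (0.09 to 1.19), and Tcf7 of 0.59 (0.02 to 1.20). Lef1, Ccr7, S1pr1 and Id2 lay between 0.19 and 0.74 with intervals that held 0. The median was 0.61, against 0.02 over all measured genes, and no member passed 2-fold, beside 4.5% of genes upward and 4.56% downward. Summed T cell markers were 626 CPM in NAV and 423 CPM in MOCK, with 6 and 5 of 8 detected, macrophage markers 88.4 and 306 CPM, with 6 and 7 of 10 detected, and their part was not tested. The cluster led by Xcl1 and Klra7 (131 and 70 cells), which stayed unnamed, had Tcf7 at 267 and 285 CPM and Satb1 at 665 and 561 CPM. Its NK markers summed to 1538 CPM in NAV and 1131 CPM in MOCK, against 9314 and 7537 CPM in NK-like cells. Its T cell markers summed to 3009 and 2629 CPM, with 8 of 8 detected in both, so it is not simply a second NK cluster. Of its 8 members, only Ccr7 passed 2-fold, upward, on 18 NAV and 4 MOCK UMIs with an interval that held 0, beside 3.78% of genes, and none passed downward, beside 4.45%.

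ILC2-like cells (26 and 21) had 3 measured members. Il7r had a log2 ratio of -0.35 (-0.96 to 0.26), Id2 of 0.07 (-0.26 to 0.42) and Satb1 of 0.71 (-0.32 to 1.81). None passed 2-fold, beside 6.44% of genes upward and 6.76% downward.

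B-like cells, the largest lymphoid class, had tightly matching Klf2 and Satb1, with log2 ratios of -0.04 (-0.12 to 0.05) and 0.00 (-0.08 to 0.09). The trafficking receptors were lower in NAV: S1pr1 had 757 UMIs in NAV and 794 in MOCK, 423 and 574 CPM, a ratio of -0.44 (-0.59 to -0.30), and Ccr7 a ratio of -0.18 (-0.30 to -0.06). Lef1 was higher on a low level, 61 UMIs in 1177 NAV cells against 21 in 1023 MOCK cells, a ratio of 1.17 (0.43 to 1.96). It was the only one of 7 measured members past 2-fold, upward, beside 1.3% of genes upward and 4.81% downward. After subtraction of the ratio in macrophage-like cells, the only other large class with a measured Lef1 ratio (1.05, on 11 UMIs in each library), it was 0.12, and with the doublets kept the Id2 ratio was -0.86, against 0.24. Plasma cell markers summed to 2735 CPM in NAV and 996 CPM in MOCK B-like cells, with 7 and 6 of 8 detected, and macrophage markers to 241 and 465 CPM, with 10 of 10 detected in both, and their part was not tested.

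Dendritic classes differed from one another. In mature DC-like cells Ccr7, which guides their migration to lymph nodes, and Id2 had log2 ratios of -0.11 (-0.22 to 0.00) and 0.09 (-0.08 to 0.26). Il7r was higher in NAV, 246 against 130.4 CPM (0.92, 0.27 to 1.62), and Klf2 higher on 40 NAV and 10 MOCK UMIs (1.05, 0.03 to 2.22). Satb1 had 23 UMIs in 90 NAV cells and none in 43 MOCK cells. Against a floor of 3 UMIs over the class this is 3.98-fold, a log2 ratio of 1.99, with an exact interval that begins at 1.58. Klf2 and Satb1 were the 2 of 6 measured members past 2-fold upward, beside 4.79% of genes, and none was past it downward, beside 6.4%. In cDC2-like cells Id2 had 731 CPM in NAV and 1015 CPM in MOCK (-0.47, -0.57 to -0.37), Ccr7 was lower (-0.31, -0.46 to -0.17) and Satb1 higher (0.56, 0.20 to 0.93). None of 5 passed 2-fold there, beside 2.44% upward and 4.81% downward. Macrophage markers were lower in NAV in each dendritic class, with 758 CPM in NAV and 1169 CPM in MOCK in mature DC-like, 801 and 1262 CPM in cDC2-like, 401 and 1349.5 CPM in cDC1-like and 84.4 and 131 CPM in pDC-like cells. Between 6 and 10 of 10 were detected, and their part was not tested.

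In cDC1-like cells Satb1 had 33 UMIs in NAV and 11 in MOCK (1.12, 0.10 to 2.25) and Ccr7 had 22 and 7 (1.19, -0.09 to 2.66). These were 2 of 4 measured members past 2-fold upward, beside 4.48% of genes, with none downward, beside 6.66%. Id2, the factor this lineage needs, was nearer even at -0.19 (-0.36 to -0.02). In pDC-like cells Id2 had 23 UMIs in 129 NAV cells and 17 in 42 MOCK cells, a ratio of -1.16 (-2.13 to -0.17), which was 1 of 5 members downward, beside 5.08% of genes, and none was upward, beside 6.23%. Neutrophil markers in pDC-like cells summed to 224 CPM in NAV and 1257 CPM in MOCK, with 9 of 9 detected in both, and their part was not tested.

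**Figure D4:**
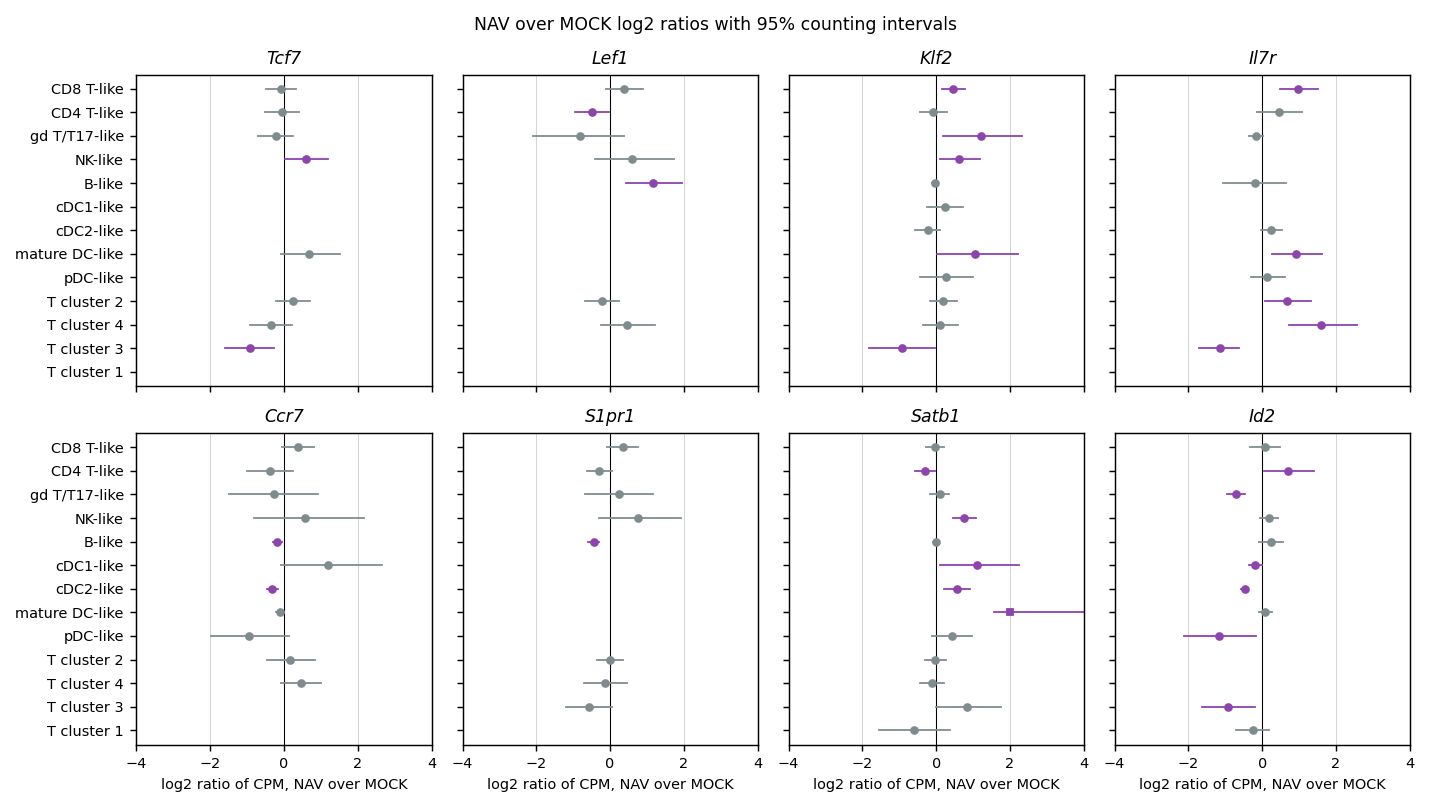
Log2 ratio of CPM, NAV over MOCK, for the 8 members in 9 classes and 4 T clusters, with exact 95% counting intervals, purple where the interval excludes 0 and grey where it holds 0. Values need 20 UMIs over both libraries, and the square is a bound with no MOCK UMI. Il7r lies right of 0 in CD8 T-like cells (0.98) and cluster 4 (1.59) and left of 0 in cluster 3 (-1.15).

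Outside the lymphoid and dendritic classes, Il7r was also higher in macrophage-like cells, with 1172 UMIs in 1763 NAV cells and 902 in 3248 MOCK cells, 142 and 52.7 CPM, a log2 ratio of 1.43 (1.30 to 1.56). The class was a different mix in each library: a cluster led by Arg1 and Spp1 gave 1062 NAV and 1381 MOCK cells, and one led by Slco2b1 and Ms4a7 gave 701 and 1867. Within the Arg1 cluster Il7r had 192 CPM in NAV and 63.3 CPM in MOCK, a ratio of 1.60 (1.44 to 1.77), and within the Slco2b1 cluster 70.1 and 45.6 CPM, a ratio of 0.62 (0.39 to 0.85). Thinned to 1300 UMIs per cell, 13.6% of NAV and 5.58% of MOCK macrophage-like cells had an Il7r UMI, and 28.0% and 15.3% before thinning. The summed T cell markers were near 0 in these cells, at 7.51 CPM in NAV and 6.55 CPM in MOCK. Of 7 measured members, Il7r and Lef1, which had 11 UMIs in each library, passed 2-fold upward, beside 1.46% of 11479 genes, and none downward, beside 5.81%.

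Other genes of these pathways were read from 5 lists. In CD8 T-like cells none of 8 measured genes of IL-7 receptor signalling and survival, out of 12 listed, passed 2-fold, with a list median of 0.06. Of 13 measured naive and stem-like genes Myb, a factor of stem-like CD8 T cells, passed upward (1.14) and Cxcr5, a follicle homing receptor, downward (-1.99). Of 10 measured homing and egress genes only Cxcr5, listed in both, passed. Of 13 measured effector genes Tbx21 (-1.32) and Zeb2 (-1.27), a pair of factors of terminal effector cells, passed downward and none upward. None of 4 measured E protein and Id genes passed. Over all measured genes of the class, 3.81% passed upward and 5.79% downward.

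In CD4 T-like cells 5 of 11 measured effector genes passed 2-fold upward, beside 6.87% of all genes, and 1 downward, beside 5.51%, with a list median of 0.87. Cluster 5, which has Pdcd1, Ccl5 and Nkg7 among its leading genes, gave 39 of the 110 NAV cells and 13 of the 51 MOCK cells, and its part in these counts was not tested. The largest were Ifng, the interferon gamma gene, on 23 NAV UMIs and 1 MOCK UMI (3.24, 0.61 to 8.60), Gzmb and the chemokine gene Ccl5. Gzmb, which encodes granzyme B, had 15 UMIs in 8 NAV cells and 31 UMIs in only 5 MOCK cells (-2.33, -3.33 to -1.40). Ccl5 had 1289 and 156 UMIs (1.76, 1.52 to 2.01). Cxcr4, the receptor for CXCL12, was the 1 of 8 homing genes past it (1.55, 0.71 to 2.51). None of 7 IL-7 receptor genes passed.

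In NK-like cells 4.5% of all measured genes passed 2-fold upward and 4.56% downward. Cd27, which marks less mature NK cells, passed upward (1.48, 0.68 to 2.38) with Bcl6 (1.29, -0.28 to 3.29), the 2 of 12 naive and stem-like genes that did. Klrg1, a receptor of mature NK cells, was the 1 of 13 effector genes past it, also upward, on 20 NAV and 3 MOCK UMIs with an interval that held 0 (1.63, -0.12 to 4.03). In B-like cells Cxcr5 was lower, with 430 NAV and 811 MOCK UMIs (-1.29, -1.46 to -1.12), and Myb higher (2.09, 0.81 to 3.63). Each was the 1 of 12 measured naive and stem-like genes past 2-fold in its direction, beside 4.81% of genes downward and 1.3% upward. In cDC1-like cells Id3, another inhibitor of E proteins, was lower on 6 NAV and 36 MOCK UMIs (-3.05, -4.59 to -1.79). It was the 1 of 6 measured E protein and Id genes past 2-fold, beside 6.66% of genes downward. In gd T/T17-like cells Gata3 was lower (-1.03), the 1 of 5 measured E protein and Id genes past 2-fold, beside 5.23% of genes downward. Ccl5 was higher there (2.92), the 1 of 7 measured effector genes past it, beside 3.57% upward. In cDC2-like cells Cish, a target gene of STAT5, was lower (-1.36, -1.76 to -0.97). It was the 1 of 10 measured IL-7 receptor genes past 2-fold, beside 4.81% of genes downward.

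Patterns over classes were compared as a description, by Pearson's r of log2(CPM + 10) over 13 classes that all come from the same 2 libraries. Tcf7 and Lef1 had r = 0.93, S1pr1 and Lef1 0.87, Satb1 and Lef1 0.85, and Klf2 and Id2 -0.58. Among 5734 genes the nearest to Tcf7 were Cd247 (0.996), Tox (0.99) and Cd28 (0.99), to Lef1 Frat2 (0.97), Inpp4b and Mitd1, and to Satb1 Ablim1 (0.98), S1pr4 and Prkd2. Il7r was nearest to Ramp3 (0.89), Pdcd1 (0.88) and Cxcr6 (0.87). Within the CD8 T-like class 2 of 55 NAV cells with a Pdcd1 UMI had an Il7r UMI, 3.64% (0.443 to 12.5%), against the 53.5% of those without. In MOCK it was 5 of 33 cells, 15.2% (5.11 to 31.9%), an interval that overlapped that of the cells without. The nearest to Klf2 were Tbk1 (0.91), Usp4 and Rasgrp2, to Ccr7 Ptpn4 (0.94), Cntrl and Trp53i11, to S1pr1 Trrap (0.97), Arid1a and Gpatch8, and to Id2 Itm2c (0.90), Pdia3 and Itgb1.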

How the data were processed

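The deposited values are UMI counts, whole numbers for each gene in each barcode, in a table per library. The submitters' processing notes name the mm10 build and the tools Cell Ranger, fastp and STARsolo (2.7.10a) without their roles. Barcodes were kept from 500 UMIs and 200 genes upward if mitochondrial UMIs were under 20%. Scrublet's automatic threshold marked 1 NAV and 2 MOCK barcodes and had not worked, so scores above 0.25 and clusters with a median score above 0.1 were removed. Both libraries were clustered together (scanpy 1.11.5, leidenalg 0.10.2, 2000 variable genes without the members, 30 components, 15 neighbours, resolution 1.0, and 2.0 for T cells). Lymphoid and T cell values were centred per library before clustering, a choice made after T clusters had split by library. Classes were named from marker lists and carry "-like", since no protein was measured. Naming thresholds and doublet cutoffs were set after the data were seen.

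UMIs were summed per class and library. A gene needed 20 UMIs over both libraries, and past 2-fold means a log2 ratio of at least 1 or at most -1. The intervals were tested on simulated counts. All 8 members were named, with up to 4 list genes past 2-fold per list and class, of which the text gives the largest, and the 3 most similar genes per member. Members, lists and markers were chosen with earlier results of these data known. Positions and promoters came from the GRCm38 annotation and RefSeq. Alternatives were 9 planned settings for the ratios and 1 added.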

Additional observations from a re-analysis of the deposited data

Results flagged for a closer look

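Il7r moved past 2-fold in opposite directions in different cell groups. T cluster 4, the CD8 cluster led by Cd8b1, had a log2 NAV/MOCK ratio of 1.59 and T cluster 3, led by Tnfsf8 and Trat1, one of -1.15, a difference of 2.75 (interval 0.73 to 2.57 for cluster 4 and -1.70 to -0.62 for cluster 3). Macrophage-like cells, at 1.43, stood 2.58 above T cluster 3. Both differences were not tested, since each group is 1 pooled library. In T cluster 4 the ratio was 1.02 with equal weight per cell and 1.23 after subtraction of the ratio in the other large classes, and in T cluster 3 these settings gave -1.21 and -1.51.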

How the results depend on the processing

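Of the medians over members, that of CD8 T-like cells was 0.81 with the libraries clustered separately, against 0.36, that of gd T/T17-like cells -0.82 at Leiden resolution 2.0, against -0.20, and that of B-like cells 0.22 with doublets kept, against -0.04. The cause was not tested. The count of members highest in the same named class in NAV and MOCK was 3 with the libraries clustered separately, against 8. The CD4 T-like class, highest in the main setting for Tcf7, Lef1, S1pr1 and Satb1, could not be named in MOCK with separate clustering. The lower count is therefore not a measure of changed levels alone. No ratio past 2-fold changed sign under any setting run. Of the single-member ratios, 18 of 83 left their counting interval after subtraction of the ratio in the other large classes, 10 of 61 with doublets kept, 7 of 49 with separate clustering and 6 of 53 under the stricter filter. With median-of-ratios scaling none of 83 did. None of 53 did with T cells clustered without centring, a setting added after the data were seen. Without a minimum of UMIs none of 83 did either, which was fixed in advance. The minimum decides which genes count as measured and enters no ratio. Without thinning, 23 of 80 shares of cells with a UMI in lymphoid classes moved. CD4 T-like cells gave no value with separate clustering or without centring, and cDC1-like cells none with separate clustering. The gd T/T17-like cells gave none under the stricter filter. In each case too few cells carried the class name in a library. Clusters were drawn and named anew at each of these settings, so this is a limit of the class names and need not be a lack of such cells. No paired analysis was possible because each group is 1 library and the labels carry no replicate number, and no replicate could be left out. Counts of 3 to 30 UMIs limit the low members most.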
